A study of Homo sapiens with 8 samples.

Results

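The genes described here are 10 members of the mammalian circadian clock, NR1D1, NR1D2, PER1, PER2, PER3, CRY1, CRY2, DBP, TEF and CLOCK, measured by RNA-seq in SW1990, an established human pancreatic adenocarcinoma line. They were taken by name from a table of 38637 genes. The members were selected on their levels in EBF2-OE against Vector libraries of the same number, so values of that comparison are a description without a test. All 10 were in the table and passed the low-count filter in every comparison. The study set up 4 groups of 2 libraries each. Vector cells carried the empty control of the EBF2 construct and EBF2-OE cells overexpressed EBF2, a transcription factor. Vehicle cells were the control for cells given GSK-LSD1, an inhibitor of the histone demethylase KDM1A, at 2000 uM as written in the labels. The study profiled transcription under raised EBF2 and under GSK-LSD1, which it used to raise the histone mark H3K4me1. The sources used here name neither the promoter or clone of the EBF2 construct, nor the hour of collection, nor any synchronisation of the cultures. The methods speak in general of independent experiments, but the sources used here do not say whether the 2 libraries of a group came from separate cultures, so p-values measure the spread between these libraries, which may be technical.

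The circadian clock is a feedback loop of transcription that runs in most cells with a period of about a day. CLOCK and its partner BMAL1 bind E-boxes and switch on the PER and CRY genes, whose proteins return to the nucleus and repress CLOCK and BMAL1. The nuclear receptors encoded by NR1D1 and NR1D2, called REV-ERB alpha and REV-ERB beta, form another loop by repressing BMAL1, against the activating ROR receptors. DBP and TEF are PAR bZIP factors that carry the rhythm to output genes through D-boxes, which the repressor NFIL3 also binds.

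Both kinds of element were searched in promoter windows from RefSeq (GRCh38.p14), each running from 250 bases before a transcription start to 50 after it. All 10 genes matched, with 15 windows because some have several starts. The E-box CACGTG lay in 4 windows of 3 genes (NR1D2, PER1 and TEF), against 7.26% of 35116 windows of all genes. The related E-prime box CACGTT lay in 5 windows, of NR1D1, PER2, CRY1, CRY2 and CLOCK, against 5.34% of all windows. The D-box TTANGTAA lay in 3 windows, of NR1D2, PER2 and PER3, against 2.18% of all windows. Both strands were searched, no match overlapped one of another motif in the members' windows (the PER2 D-box reads the same on both strands and was counted once), and DBP held none of them in its window. TGACGTCA, the cAMP response element, was in no member's window and in 1.85% of all windows. AGGTCA, the nuclear receptor half-site, lay in 3 windows of 2 genes, PER1 and CRY2, against 13.8% of all windows. A match is a description of letters, and no binding was measured here. The stretches below show the 5 genes with both EBF2-OE libraries under both Vector libraries (NR1D1, NR1D2, CRY2, TEF and PER3), followed by PER1 and PER2 for comparison, with E-boxes, E-prime boxes and D-boxes in capitals.
NR1D1: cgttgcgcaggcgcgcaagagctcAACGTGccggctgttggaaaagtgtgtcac
NR1D2: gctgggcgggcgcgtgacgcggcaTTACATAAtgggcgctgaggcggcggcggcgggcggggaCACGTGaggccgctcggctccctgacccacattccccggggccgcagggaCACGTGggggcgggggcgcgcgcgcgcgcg
CRY2: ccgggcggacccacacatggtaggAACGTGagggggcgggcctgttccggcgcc
TEF: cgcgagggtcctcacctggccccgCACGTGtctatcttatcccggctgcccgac
PER3: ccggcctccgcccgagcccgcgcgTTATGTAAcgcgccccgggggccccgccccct
PER1: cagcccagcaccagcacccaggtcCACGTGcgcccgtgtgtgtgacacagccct
PER2: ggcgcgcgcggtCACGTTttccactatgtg
They are read 5′ to 3′ along the gene. On hg38 they lie at chr17:40100728-40100781 (minus strand), chr3:23945903-23946045 (plus), chr11:45847263-45847316 (plus), chr22:41381725-41381778 (plus), chr1:7784090-7784145 (plus), chr17:8152548-8152601 (minus) and chr2:238288790-238288819 (minus). The NR1D1 E-prime box begins 168 bases before the start. The NR1D2 stretch is upstream of its second listed start, with a D-box 194 bases and E-boxes 155 and 105 bases before it. The boxes of CRY2, TEF, PER1 and PER2 begin 188, 193, 173 and 197 bases before their starts. For CRY2 and TEF this is also the second listed start, and TEF has another E-box, not shown, 195 bases before its first. The windows of the first NR1D2 start, the first CRY2 start and the second PER3 start held no E-box, E-prime box or D-box.

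Library totals ran from 20453362 to 27054876 counts. EBF2, the gene that was overexpressed, had 28 counts in each Vector library, 5818 in EBF2-OE 2 and 90100 in EBF2-OE 3, so the overexpression libraries differed widely in dose. The ductal markers KRT7, KRT8, KRT18 and MUC1 were abundant in all 8 libraries, while KRT19 (0 to 21 counts) and EPCAM (4 to 20 counts) were near 0. The summed CPM of these 6 markers ran from 3879 to 3897 in Vector, 4455 to 5059 in EBF2-OE, 5409 to 5635 in Vehicle and 4213 to 4282 in GSK-LSD1. For 10 markers of other cell types it was 87.0 to 90.2, 75.2 to 107.9, 78.2 to 79.3 and 89.2 to 95.6 in the same order. Of these 10, the markers CD3E, PRSS1, INS and GCG were at 0 in every library, PTPRC stayed at 9 counts or fewer and COL1A1 had 1419 to 2299 counts. The libraries numbered 3 stood apart from those numbered 2 in some immediate-early genes. FOS was 4.28-fold higher in Vector 3 than in Vector 2 and 8.47-fold higher in EBF2-OE 3 than in EBF2-OE 2. EGR1 was 34.0- and 49.1-fold higher and NR4A1 3.93- and 7.64-fold. DUSP1 and CREM did not share this, with ratios in Vector and EBF2-OE of 0.87 and 1.22 for DUSP1 and 1.06 and 0.81 for CREM.

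**Figure D1:**
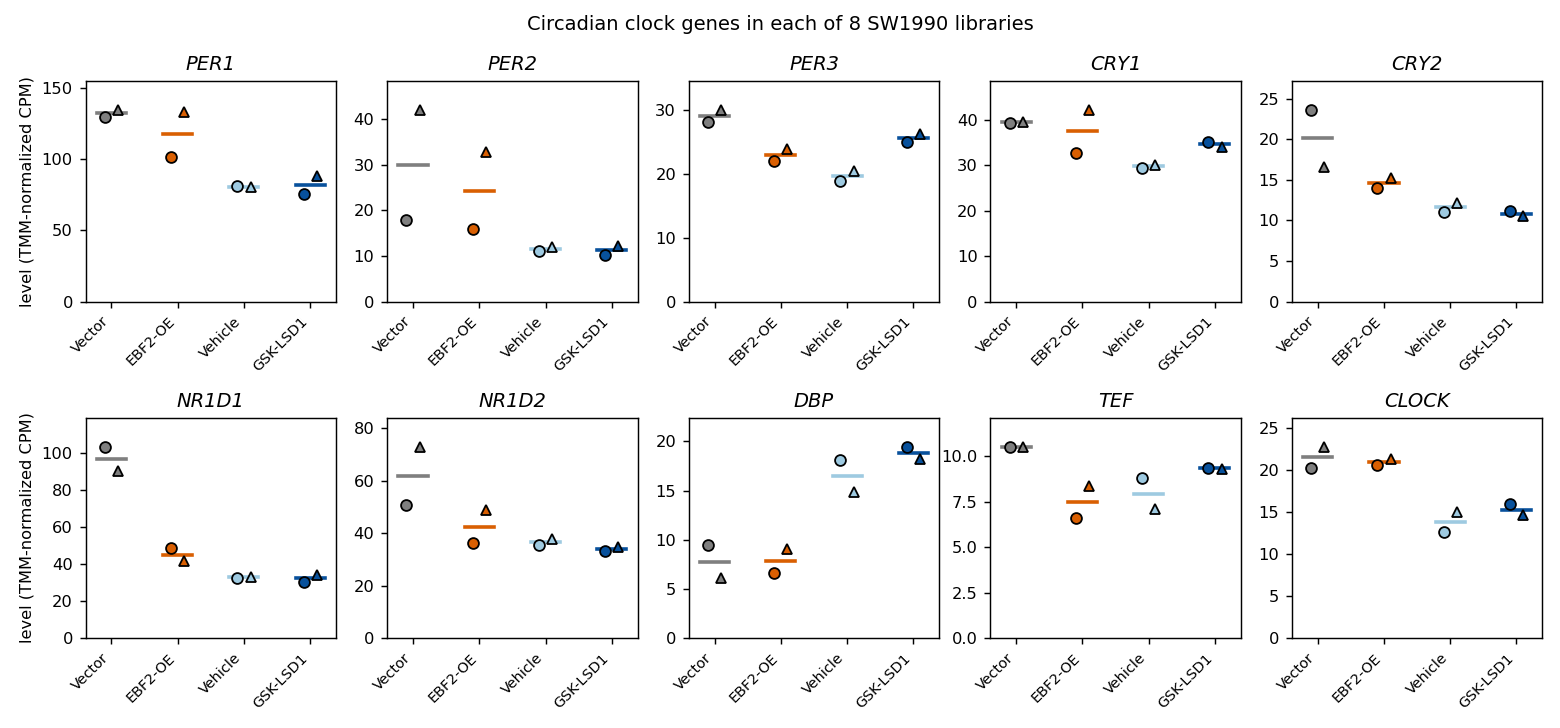
Level of each of the 10 clock genes in every library, as TMM-normalized CPM (linear axis from 0), with circles for the lower-numbered and triangles for the higher-numbered library of a group and bars for group means. NR1D1 lies at 90.1 and 103.6 in Vector and at 48.9 or lower in the other 6 libraries.

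NR1D1 was the member that differed most between EBF2-OE and Vector libraries. NR1D1 encodes REV-ERB alpha and lies at chr17:40092793-40100589 on the minus strand (hg38). Its level was 103.6 and 90.1 CPM in Vector 2 and 3, and 48.9 and 41.6 in EBF2-OE 2 and 3, where CPM puts counts of each library on the same total after TMM normalization. The EBF2-OE libraries lay far below both Vector libraries and 2.13-fold lower by the edgeR fit, with a log2 fold change of -1.09 ± 0.145 (SE, n = 2 against 2). Each EBF2-OE library was compared with the Vector library of the same number, giving 2.12-fold lower in the pair numbered 2 and 2.17-fold lower in the pair numbered 3. Of all 15560 genes tested, 0.611% were lower by over 1.5-fold in both pairs, and no other member was. NR1D1 ranked 45th from the lowest log2 fold change. It ranged from -1.21 to -0.97 when each library was left out in turn. In bulk RNA, fewer cells with a transcript and less transcript in each cell cannot be told apart.

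NR1D2, on chromosome 3 (23945286-23980618, plus strand), encodes the sister receptor REV-ERB beta. It stood at 50.6 and 73.1 CPM in Vector and 36.3 and 48.9 in EBF2-OE. The EBF2-OE libraries were both below the Vector libraries, although EBF2-OE 3 came within 2 CPM of Vector 2. Its log2 fold change was -0.53 ± 0.226, and the differences were -28.3% and -33.1% in the pairs numbered 2 and 3. Without Vector 3 the log2 fold change was -0.25, and without Vector 2 it was -0.76.

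**Figure D2:**
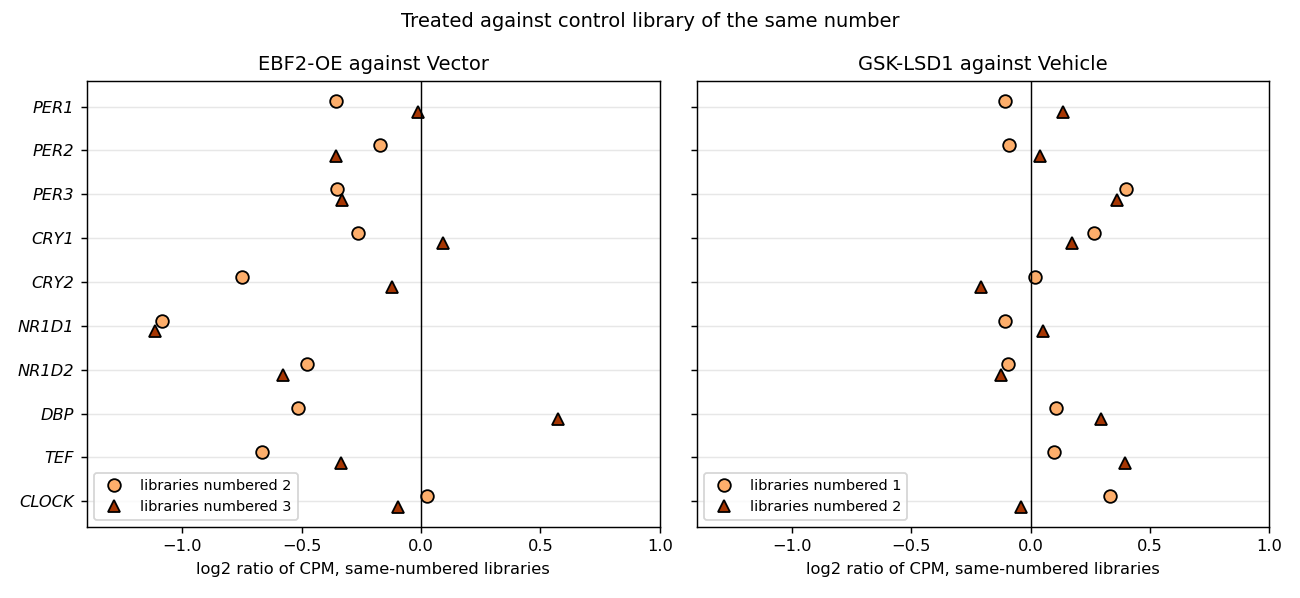
Log2 ratio of CPM between each treated library and the control library of the same number, for EBF2-OE against Vector (left) and GSK-LSD1 against Vehicle (right), with 0 meaning no difference. NR1D1 is at -1.08 and -1.11 on the left and within 0.11 of 0 on the right.

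The PER genes encode repressors of the CLOCK complex and gave differing pictures. PER3 (chromosome 1, 7784285-7845181, plus strand) was at 28.2 and 30.0 CPM in Vector and 22.1 and 23.9 in EBF2-OE. Its EBF2-OE libraries differed from the Vector libraries of the same numbers by -21.7% and -20.5%, with a log2 fold change of -0.33 ± 0.146. PER1 (chromosome 17, 8140470-8156360, minus strand) was at 129.7 and 134.8 CPM in Vector and 101.4 and 133.5 in EBF2-OE. Its fit gave -0.16 ± 0.165, with differences of -21.9% in the pair numbered 2 and -0.94% in the other. Without EBF2-OE 2 the PER1 value was 0.022.

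PER2 (chromosome 2, 238244038-238290102, minus strand) split by library number rather than by group. It was at 17.9 CPM in Vector 2 and 15.8 in EBF2-OE 2, against 42.1 in Vector 3 and 32.9 in EBF2-OE 3. The libraries numbered 3 were 2.36-fold higher than those numbered 2 in Vector and 2.08-fold in EBF2-OE, a distance matched by 1.56% and 3.46% of genes. WEE1, a clock-controlled kinase, differed by 2.40- and 2.08-fold in the same libraries and KLF9, a clock-controlled factor, by 2.03- and 1.80-fold. Other clock-controlled genes did not share this. The ratios in Vector and EBF2-OE were 0.83 and 0.72 for NAMPT and 0.84 and 0.85 for ALAS1. For KLF10 they were 0.65 and 1.265, and for POR 1.08 and 1.49. These stand beside the FOS and EGR1 differences above, and the part of those differences in PER2 was not tested. Within the pairs numbered 2 and 3 PER2 differed between EBF2-OE and Vector by -11.4% and -21.8%. The PER2 log2 fold change was -0.29 ± 0.477 when the numbers were not used, and it was 0.45 without Vector 3, which leaves a number unmatched.

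CRY1 and CRY2 encode the cryptochromes that repress with PER. CRY2 (chromosome 11, 45847118-45883244, plus strand) was at 23.6 and 16.6 CPM in Vector and 14.1 and 15.3 in EBF2-OE. Both EBF2-OE values lay below both Vector values, but Vector 3 was only just above them, and the log2 fold change of -0.45 ± 0.222 became -0.16 without Vector 2. CRY1 (chromosome 12, 106991364-107093872, minus strand) was at 39.3 and 39.6 CPM in Vector and 32.7 and 42.2 in EBF2-OE, so the groups overlapped. Its log2 fold change was -0.067 ± 0.165, and 0.10 without EBF2-OE 2.

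The output factors also parted. TEF (chromosome 22, 41367455-41399326, plus strand) was at 10.5 CPM in both Vector libraries and at 6.61 and 8.36 in EBF2-OE, differences of -37.1% and -20.6%, with a log2 fold change of -0.48 ± 0.216. DBP (chromosome 19, 48630030-48637379, minus strand) was at 9.46 and 6.12 CPM in Vector and 6.61 and 9.12 in EBF2-OE. The differences were -30.1% in the pair numbered 2 and 48.9% in the pair numbered 3, with a log2 fold change of 0.022 ± 0.305. CLOCK (chromosome 4, 55427903-55547138, minus strand), which encodes the activator, was at 20.3 and 22.8 CPM in Vector and 20.6 and 21.3 in EBF2-OE, a log2 difference of -0.031 ± 0.156.

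Over the 10 members, 9 log2 fold changes for EBF2-OE against Vector were below 0, with a median of -0.31 against 0.0035 for all 15560 genes. Both EBF2-OE libraries lay under both Vector libraries for 5 members, NR1D1, NR1D2, PER3, CRY2 and TEF, where 10.8% of all genes did. NR1D1, at -1.09, was the only member past 1.5-fold in either direction, against 1.83% of genes that were lower by that much. Over all 15560 genes the edgeR quasi-likelihood test called 0% at an adjusted p under 0.05 and a fold over 1.5. The same limits without adjustment took 148 genes (0.951%), and DESeq2 called 6 higher and 1 lower. EBF2 itself was not called by edgeR (log2 10.75 ± 1.553, edgeR adjusted p = 0.9998). A count of 0 in this comparison therefore does not show that genes did not respond. The members were selected on this comparison, so no test of them is given and nothing follows from their counts.

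In GSK-LSD1 against Vehicle, 0 of the 10 members passed both limits of the edgeR test, where 4.57% of 16059 genes did, and 0 were called by DESeq2 or by an unadjusted p with the fold limit (6.76% of genes). PER3 was at 18.9 and 20.5 CPM in Vehicle and 25.0 and 26.3 in GSK-LSD1, 1.30-fold higher, with a log2 fold change of 0.38 ± 0.0882 and an adjusted p of 0.0142 by edgeR. It passed the p limit but not the fold limit, and its adjusted p ranged from 0.00442 to 0.184 over the other settings. CRY1 was at 29.3 and 30.1 CPM in Vehicle and 35.2 and 34.0 in GSK-LSD1, with 0.21 ± 0.0715 (edgeR adjusted p = 0.0611). The NR1D1 values of 32.6 and 33.2 in Vehicle and 30.2 and 34.4 in GSK-LSD1 overlapped, with a log2 fold change of -0.029 ± 0.0808 (edgeR adjusted p = 0.847).

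The other members passed neither limit. NR1D2 was at 35.5 and 37.8 CPM in Vehicle and 33.2 and 34.6 in GSK-LSD1, and was the only member with both GSK-LSD1 libraries below both Vehicle libraries (30.2% of genes). TEF, DBP, PER3 and CRY1 had both above (30.0% of genes), with 0.24 ± 0.133 for TEF and 0.19 ± 0.112 for DBP (edgeR adjusted p = 0.251 and 0.265). CLOCK was at 0.14, PER1 at 0.015, PER2 at -0.028 and CRY2 at -0.10 on the log2 scale. The median of the 10 was 0.075, and of all genes -0.0059. KRT7 was 1.61-fold lower in GSK-LSD1 than in Vehicle (edgeR adjusted p = 2.19e-05). KRT18 and KRT8 were also lower (log2 -0.45 ± 0.0385 and -0.30 ± 0.0345) but did not pass the fold limit. MUC1 overlapped (0.16 ± 0.0926), and KRT19 and EPCAM, near 0, did not pass the low-count filter. The part of these markers in the clock gene values was not tested. The difference between the responses of a gene to EBF2-OE and to GSK-LSD1 was not tested.

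**Figure D3:**
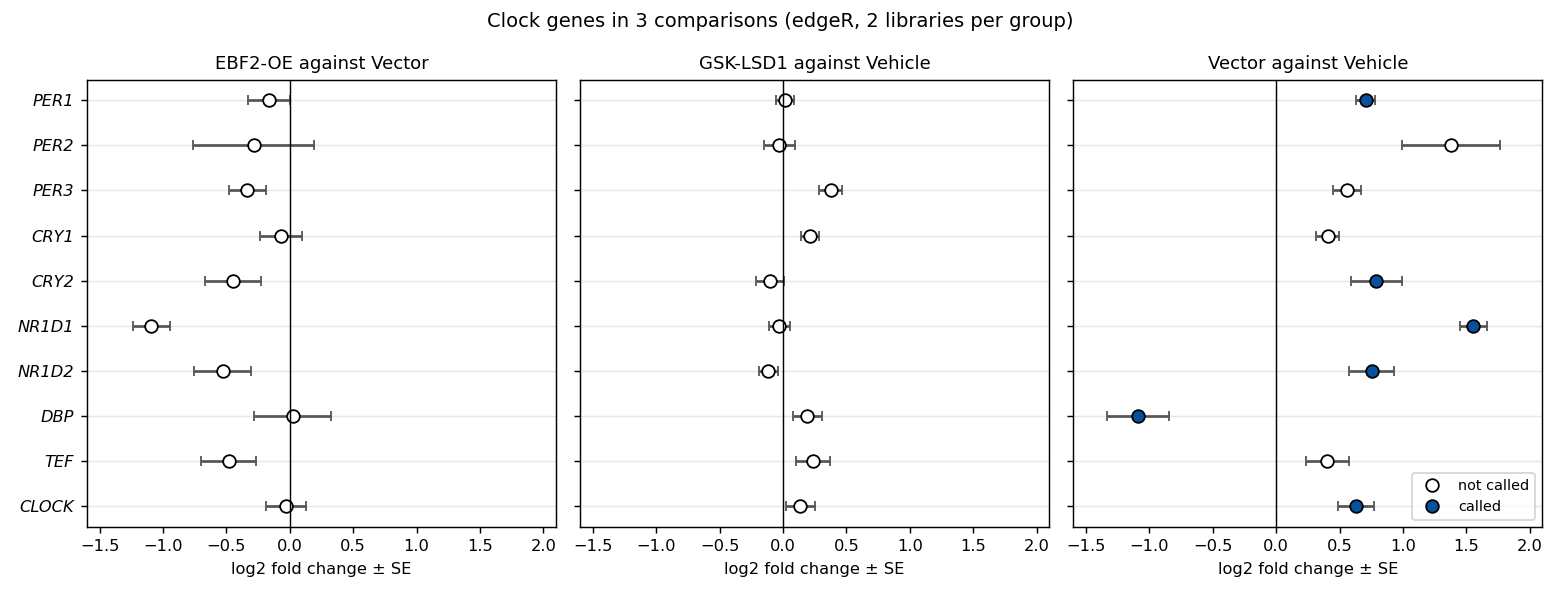
Log2 fold change of each clock gene in 3 comparisons by edgeR, with bars for the standard error (2 libraries per group) and filled points for genes past an adjusted p of 0.05 and a fold of 1.5. In the Vector against Vehicle panel 6 genes are filled, and in the others none.

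The controls differed from each other in clock genes, with 9 members above and DBP below without overlap (35.6% and 35.3% of genes). Vector libraries had 5 members higher than Vehicle libraries past both limits, where 5.79% of 16019 genes were, and DBP lower, where 10.2% of genes were. The selection of the members used these Vector libraries, so nothing follows from these counts. The p-values of members in this comparison are not free of that selection either. NR1D1 was at 103.6 and 90.1 CPM in Vector and 32.6 and 33.2 in Vehicle, 2.94-fold higher (log2 1.56 ± 0.108, edgeR adjusted p = 0.00577). NR1D1 in EBF2-OE, at 48.9 and 41.6, was still above both Vehicle libraries. PER1, with 129.7 and 134.8 against 81.3 and 80.4 CPM, was 1.63-fold higher (edgeR adjusted p = 0.00789).

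The other members that passed were CRY2, NR1D2 and CLOCK. CRY2 was 1.73-fold higher (23.6 and 16.6 against 11.0 and 12.2 CPM, edgeR adjusted p = 0.0407), NR1D2 1.68-fold (50.6 and 73.1 against 35.5 and 37.8 CPM, 0.0331) and CLOCK 1.55-fold (20.3 and 22.8 against 12.7 and 15.0 CPM, 0.0297). DBP moved the opposite way, with 9.46 and 6.12 CPM in Vector and 18.1 and 14.9 in Vehicle, 2.12-fold lower (log2 -1.09 ± 0.245, edgeR adjusted p = 0.0294). PER2 was 2.60-fold higher in Vector with a wide error (log2 1.38 ± 0.388, edgeR adjusted p = 0.0504), PER3 and CRY1 passed the p limit but not the fold limit (1.47- and 1.32-fold, 0.0208 and 0.029), and TEF passed neither (1.32-fold, 0.127). Without Vehicle 1 no member was called (12 genes in all were), and without Vehicle 2 only NR1D1 was, while 7 members were called without Vector 2 and 5 without Vector 3, with the lone library assumed to vary like the other group. In the same comparison KRT18, a keratin, was 1.99-fold lower in Vector, as were the endothelial marker VWF (5.20-fold, 7 counts in each Vector library against 41 and 46 in Vehicle) and the fibroblast marker COL3A1 (1.76-fold), with edgeR adjusted p of 0.00608, 0.0119 and 0.0298. The other fibroblast marker, COL1A1, had both Vector libraries above both Vehicle libraries (log2 0.26 ± 0.0804). The other endothelial marker, PECAM1, overlapped (log2 -0.31 ± 0.52). Among other keratins, KRT8 was at -0.49 and KRT7 at -0.013. The part of these markers in the clock gene differences was not tested. The construct, the culture and the preparation of the libraries cannot be told apart in this comparison. The comparison of EBF2-OE with Vector and that of Vector with Vehicle use the same 2 Vector libraries, so they are not independent.

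In the order of the 8 libraries, both Vector libraries lay above the other 6 for NR1D1, NR1D2, PER3, CRY2 and TEF, against 6.60% of the 14205 genes with a mean of at least 1 CPM. The members were selected on EBF2-OE against Vector, so nothing follows from this count. All 4 Vector and EBF2-OE libraries lay above all 4 Vehicle and GSK-LSD1 libraries for NR1D1, PER1, PER2, CRY2 and CLOCK (21.5% of genes) and below them for DBP (19.7% of genes).

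Levels of different genes are compared in TPM, which allows for gene length. NR1D1 averaged 51.8 TPM over the 8 libraries (29.0 to 107.3) and PER1 49.5 (34.9 to 64.7). CRY1 followed at 26.4, NR1D2 at 20.9, DBP at 10.9, CRY2 at 8.75, PER3 at 7.58, PER2 at 7.46, TEF at 5.10 and CLOCK at 3.86. Among neighbours in this order, only PER1 and CRY1 had ranges that did not overlap. NR1D1 was above PER1 in both Vector libraries (107.3 and 88.8 against 64.7 and 64.0 TPM) and level with it in EBF2-OE 2 (48.6 against 48.6). PER1 was above NR1D1 in the other 5 libraries, by 63.9 against 41.3 TPM in EBF2-OE 3, 38.7 against 32.2 and 39.1 against 33.5 in Vehicle, and 34.9 against 29.0 and 41.9 against 34.0 in GSK-LSD1. The first place of NR1D1 in the mean thus came from the Vector libraries.

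Some members share sequence with a neighbour. NR1D1 overlaps the opposite-strand THRA by 1075 bases, NR1D2 overlaps NKIRAS1 by 1277, DBP overlaps SPHK2 by 378 and CLOCK overlaps TMEM165 by 25495. The strand setting of the counting is not given in the sources used here, so reads in an overlap cannot be told apart. THRA changed by -0.10 ± 0.139 log2 in EBF2-OE against Vector while NR1D1 changed by -1.09. The values were -0.016 ± 0.143 for NKIRAS1, 0.052 ± 0.300 for SPHK2 and 0.0084 ± 0.130 for TMEM165. SPHK2 had 484 and 462 counts in Vector 2 and 3, and 312 and 636 in EBF2-OE 2 and 3. It was thus lower in the pair numbered 2 and higher in the pair numbered 3, as DBP was. The part of shared reads in this was not tested.

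Other genes of the clock were read from a list of 10, which are activators, RORs and repressors around the loop. Their median log2 fold change was -0.061 for EBF2-OE against Vector, 0.13 for GSK-LSD1 against Vehicle and 0.51 for Vector against Vehicle. In EBF2-OE against Vector 0 of the 9 tested were called (0% of all genes), and 3 (ARNTL, HLF and BHLHE41) had both EBF2-OE libraries below both Vector libraries (10.8% of all genes). BMAL1, listed as ARNTL, was at 21.8 and 22.5 CPM in Vector and 21.6 and 17.0 in EBF2-OE (log2 -0.20 ± 0.177). HLF, the other PAR bZIP factor, had 24 and 20 counts in Vector and 2 and 7 in EBF2-OE. In GSK-LSD1 against Vehicle, 1 of 8 tested was called (4.57% of all genes), RORB, whose GSK-LSD1 libraries held 21 and 25 counts and its Vehicle libraries 10 and 9 (log2 1.46 ± 0.405, edgeR adjusted p = 0.0299, 0.0191 to 0.443 over settings). The RORB call was lost when any of the 4 libraries was left out. NFIL3 and BMAL2 (listed as ARNTL2) passed the p limit only, with 0.46 and 0.40 (edgeR adjusted p = 0.00845 and 0.0464).

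In Vector against Vehicle, 3 of 8 tested were higher (5.79% of all genes) and 0 lower (10.2% of all genes). NFIL3 was at 38.1 and 46.3 CPM against 16.7 and 15.5 (log2 1.39 ± 0.13, edgeR adjusted p = 0.00714), BHLHE41 had 52 and 55 counts against 17 and 24 (1.62 ± 0.289, 0.0171), and HLF, with 24 and 20 counts against 1 and 3, was at least 8.71-fold higher when Vehicle is set at 3 counts per library (edgeR adjusted p = 0.0138). DESeq2 gave HLF no adjusted p, and the filter of 10 counts in every library removed it. Without Vehicle 1 none of the 3 was called, and without Vehicle 2 NFIL3 was.

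**Figure D4:**
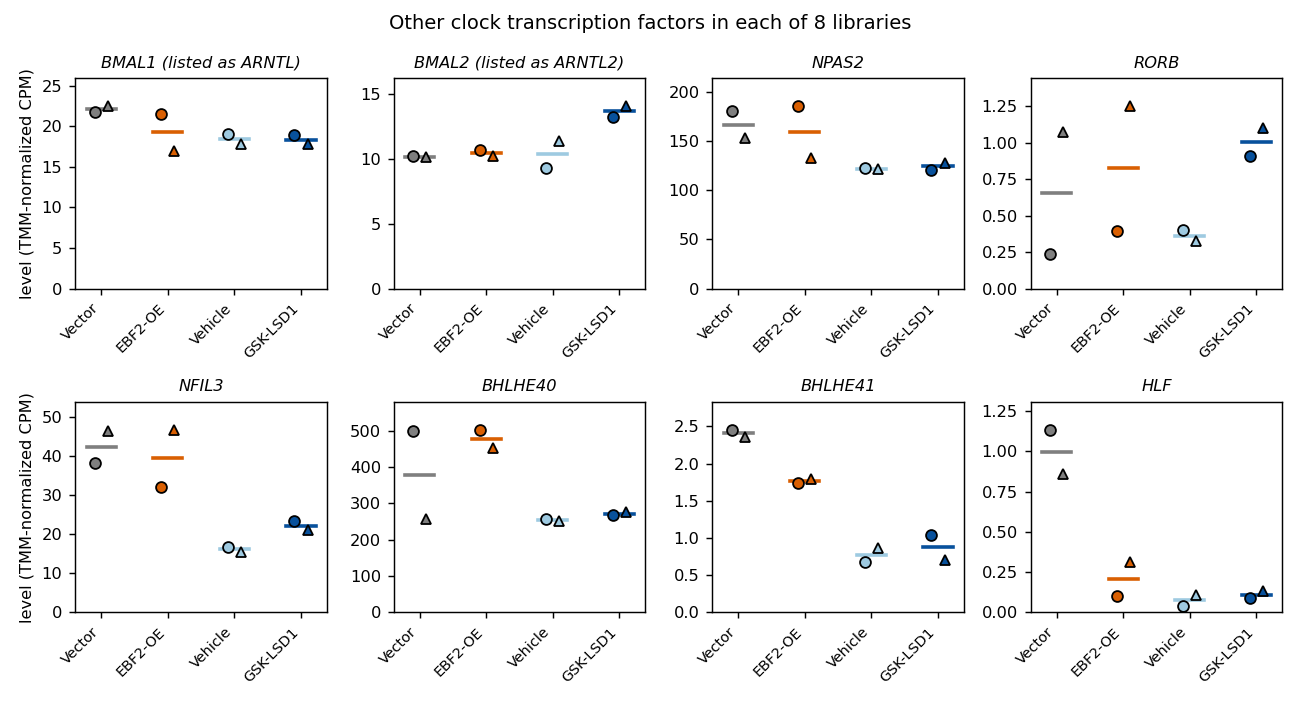
CPM of 8 further clock transcription factors in every library (linear axes from 0), with circles for the lower-numbered and triangles for the higher-numbered library and bars for group means. NFIL3, BHLHE41 and HLF are higher in Vector than in Vehicle.

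Of 6 clock-controlled genes, 0 were called with EBF2-OE (0% of all genes) or GSK-LSD1 (4.57%) and 2, KLF10 and NAMPT, were higher in Vector than Vehicle, with log2 fold changes of 0.94 and 1.10 (edgeR adjusted p = 0.0284 and 0.0081, against 5.79% of all genes). Another list of 8 genes was named for clock inputs, and their role in the clock was not tested. Of these 8, 1, TSC22D3, was called lower in Vector than Vehicle (log2 -0.96, edgeR adjusted p = 0.00738, against 10.2% of all genes), and none in the other comparisons. Of 6 genes for turnover of clock proteins and 5 for proliferation, none was called in any comparison. The KLF10, NAMPT and TSC22D3 calls were lost without Vehicle 1 (edgeR adjusted p = 0.157, 0.0797 and 0.0797) and without Vehicle 2 (0.125, 0.0559 and 0.0537).

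The gene outside these lists whose pattern over the 8 libraries was nearest to the mean of NR1D1, NR1D2, PER1, PER2, PER3, DBP and TEF was SIRT1, with a root mean square difference of 0.067 in centred log2 CPM, against 0.24 for the size of the pattern itself. CRY1, CRY2 and CLOCK were not part of that mean, and DBP, which ran opposite to the rest, was. ZNF335, TSSC4, SMG5 and ATP9B followed (0.077 to 0.089) among 11435 genes compared.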

How the data were processed

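RNA of SW1990 cells was sequenced as paired-end poly(A) libraries. Per the study's methods, the authors aligned reads to hg38 with HISAT2 and counted them per gene with HTSeq. The deposited table holds raw counts and TPM for 8 libraries, and the authors' TPM was used only to compare genes with each other. From the counts, edgeR 4.0.16 (R 4.3.3) gave quasi-likelihood tests for 3 comparisons of 2 against 2 libraries, with TMM normalization, the filterByExpr filter (minimum count 10) and Benjamini-Hochberg adjustment over all genes tested. Genes were called at a fold over 1.5 and an adjusted p under 0.05. Standard errors are the log2 fold change over the root of F. The fit was tested on simulated data. DESeq2 1.42.0, other filters, scalings and library sets were alternatives. Centred log2 CPM used a pseudocount of 1. Named were all members, called genes and examples of the clock, turnover, clock-controlled, input and proliferation lists, marker genes, overlapping neighbours, and the 5 genes nearest in pattern to NR1D1, NR1D2, PER1, PER2, PER3, DBP and TEF (mean of at least 5 CPM). Members and lists were chosen with earlier results of these data known. Some genes of these lists are not reported here. Depth was 20453362 to 27054876 counts per library.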

Additional observations from a re-analysis of the deposited data

Results flagged for a closer look

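For PER3 and TEF, both EBF2-OE libraries lay below both Vector libraries (10.8% of genes) and both GSK-LSD1 libraries lay above both Vehicle libraries (30.0% of genes). Neither gene was called in either comparison, and PER3 passed the adjusted p limit but not the fold limit with GSK-LSD1 (edgeR adjusted p = 0.0142). The PER3 log2 fold change was -0.33 for EBF2-OE against Vector and 0.38 for GSK-LSD1 against Vehicle. For TEF the values were -0.48 and 0.24. The difference between the treatments was not tested for either gene.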

How the results depend on the processing

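Counts here cover the 10 members and the 10 other clock genes. In EBF2-OE against Vector, 0 clock genes were called, and 2 (NR1D1 and HLF) without adjustment of p, 1 by DESeq2 and 1 without the low-count filter, NR1D1 in both, while leaving out any library gave 0. Over all genes these settings called 114 higher and 34 lower, 6 and 1, and 64 and 10, against 0. A fit with the library number as a replicate block called 1 clock gene, NR1D1, among 4 higher and 1 lower over all genes. NR1D1 was selected on these same-number differences, so nothing follows from its calls in this comparison. In GSK-LSD1 against Vehicle the block left the clock gene count at 1. Same-numbered libraries deviated together with a correlation of 0.345 over 11308 genes for EBF2-OE and Vector and -0.0881 for GSK-LSD1 and Vehicle. With 2 pairs and no label saying what a number marks, the numbers were not taken as pairing. In GSK-LSD1 against Vehicle, 1 clock gene was called, against 4 without the fold limit and 0 by DESeq2, with 10 counts in every library or with all 8 libraries fitted together, and leaving out any 1 library gave 0. DESeq2 called 284 genes higher and 186 lower there and the fit of all 8 libraries 85 and 15, against 406 and 328. In Vector against Vehicle, 9 were called, and leaving out 1 library gave 0 (without Vehicle 1) to 11 (without Vector 2), with 2 without Vehicle 2. Over all genes 927 were higher and 1631 lower, against 2 and 10 without Vehicle 1, 34 and 201 without Vehicle 2, and 1581 and 2678 without Vector 2. The cause of these changes was not tested.

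The sign of 3 small GSK-LSD1 values turned when a library was left out. NR1D1 ranged from -0.12 to 0.066 (without GSK-LSD1 1), PER1 from -0.10 (without GSK-LSD1 2) to 0.13, and PER2 from -0.15 to 0.095 (without GSK-LSD1 1), with 0.031 without Vehicle 2. Of the alternatives for single members, 96 of GSK-LSD1 against Vehicle kept direction and threshold side and 4 turned. In EBF2-OE against Vector, 87 moved by at most the standard error of the main log2 fold change and 13 by more. A turn of sign was counted there only for values larger than their standard error. The turns of PER1, PER2, CRY1, DBP and CLOCK were thus not counted, with PER2 running from -0.92 to 0.45. In Vector against Vehicle, 69 kept direction and threshold side, while 14 lost the call and 7 gained it. With 2 libraries per group, the biological coefficient of variation was 19% for EBF2-OE and Vector, 5.87% for GSK-LSD1 and Vehicle and 13.1% for Vector and Vehicle.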
